A study of Solanum tuberosum with 6 samples.

Results

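The microRNA families miR6019 to miR6027, known from Solanaceae, were examined in potato leaves with and without potassium phosphite (KPhi). In the deposited table of 910 sequences, 10 bear the name of a mature miRNA of these families, and they fall into 6 of the 9: miR6021, miR6022, miR6024, miR6025, miR6026 and miR6027. Members were chosen by name alone, without regard to their reads, and include both arms of the hairpin and all length variants. By their prefix, 7 are named after potato (stu), 1 after tomato (sly) and 2 after tobacco (nta).
KPhi treated plants (libraries T2, T4 and T6) received a foliar spray of a commercial KPhi product at 1% (v/v), 5 mL per plant, and control plants (C1, C3 and C5) received water. All plants were potato cv. Shepody, grown from seed tubers in a greenhouse, sprayed 21 days after emergence and harvested 72 h later, at 24 days. The study states 3 biological replicates per treatment, does not say how many plants entered each, and covers 1 cultivar and 1 time. Only small RNA was sequenced from whole leaf tissue, so the tissue could not be checked against leaf mRNA markers, and fewer cells of a type cannot be told apart from less RNA per cell.

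miRNAs guide Argonaute proteins to complementary mRNAs, which are then cleaved or not translated. Several of these families pair with mRNAs of immune receptors, the proteins by which plants detect pathogens. In tobacco, miR6019 and miR6020 target the virus resistance gene N. In tomato, miR6022 targets receptor-like genes related to Cf-9, miR6024 targets the virus resistance gene Tm-2, and miR6026 targets Dicer-like 2, an enzyme that makes small RNAs. A miRNA of 22 nt can also start the production of secondary small RNAs from the mRNA it cleaves. No mRNA or protein of such a target was measured in these files.

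The sequences of the 5 most abundant members are given here 5′ to 3′ with bases 2 to 8, the seed, in capitals, as a fixed stretch for comparing them. The study predicted targets from perfect or near-perfect pairing with the miRNA, so targets cannot be read from the seed alone. The sequences come from the deposited table, which writes T for U.
stu-miR6027_R-1: tGAATCCTtcggctatccata
sly-miR6027-5p: aTGGGTAGcacaaggattaatg
stu-miR6026-3p: tTCTTGGCtagagttgtattgc
stu-miR6022: tGGAAGGGagaatatccagga
stu-miR6024-3p: tTTTAGCAagagttgttttccc
In these names R-1 means that the sequence is 1 base shorter at its 3′ end than the reference miRNA. The 10 members had 10 different seeds, so none shared a seed with another. Among the other sequences of the table, the seed of stu-miR6027_R-1 was found in 1, the predicted sequence PC-5p-42181_44, and the seeds of the remaining members in 0. Of the 10, 5 were 22 nt and 5 were 21 nt long, against a median of 24 nt in the table, and 7 began with T and 3 with A.
Although their seeds differ, stu-miR6024-3p and stu-miR6026-3p share a run of 8 bases in the middle, shown in capitals.
stu-miR6024-3p: ttttagcaAGAGTTGTtttccc
stu-miR6026-3p: ttcttggctAGAGTTGTattgc
Aligned without gaps, with a shift of 1 base, 16 of 21 facing bases were the same. The 2 tobacco-named miR6021 sequences overlap over 20 bases, in capitals, and differ by a shift of 1 base, which also moves the seed.
nta-miR6021_1ss21AG: tTGGAAGAGGCTGCTATTGGG
nta-miR6021_L-1R+1_1ss21AG: TGGAAGAGGCTGCTATTGGGa
Both arms of the hairpin were present for miR6024, miR6026 and miR6027. The arms of miR6026 are shown because they face each other as a duplex with 2 unpaired bases at each 3′ end, the form in which Dicer leaves its products.
stu-miR6026-5p_1ss12TA: aatacaactatagccaagacaa
stu-miR6026-3p: ttcttggctagagttgtattgc
Of the 20 facing positions of this duplex, 18 were Watson-Crick pairs. In the name of the 5p arm, 1ss12TA means that base 12 is A where the reference has T. This base faces a T of the 3p arm, so 1 of the 18 pairs rests on the substitution. The arms of miR6027 gave 16 Watson-Crick pairs and 1 G-U pair over 20 positions, and those of miR6024 gave 17 and 1 over 20.

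Together the 10 members held 2233 reads over the 6 libraries, 0.0879% of the reads in the table. Per 1e6 mappable reads they took 76.3, 41.4 and 69.0 reads in T2, T4 and T6, against 98.1, 49.3 and 63.4 in C1, C3 and C5. The means were 62.2 ± 18.4 in KPhi and 70.3 ± 25.1 in control libraries (SD, n = 3 each), with overlapping libraries. The 95% Clopper-Pearson intervals were 70.3 to 82.5, 35.6 to 47.9 and 62.4 to 76.0 in T2, T4 and T6, and 89.9 to 106.8, 43.2 to 56.0 and 55.9 to 71.5 in C1, C3 and C5. These intervals cover counting error only, and reads copied by PCR are not independent molecules. As a share of the table's reads the order was the other way, with 0.118% ± 0.0470 in KPhi and 0.0688% ± 0.0185 in control libraries (SD, n = 3 each), since all table sequences together were a smaller part of the mappable reads in T2 (4.56%) and T4 (3.66%) than in T6 (9.35%) and the control libraries (9.14% to 11.3%). T4 also had the fewest table reads, and 33.5% of its raw reads were longer than 32 nt, against 3.13% to 13.6% in the other libraries. The part of these differences in the results was not tested.
Abundance within the group was very uneven. stu-miR6027_R-1 alone held 1680 reads, 75.2% of the group, followed by sly-miR6027-5p with 247, stu-miR6022 with 132, stu-miR6026-3p with 95 and stu-miR6024-3p with 61. These 5 were seen in every library and were the ones that reached 10 reads in 3 or more libraries, the condition for the test. The other 5 had 18 reads in all and at most 4 in any library. stu-miR6026-3p had 54 of its 95 reads in T2.

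**Figure D1:**
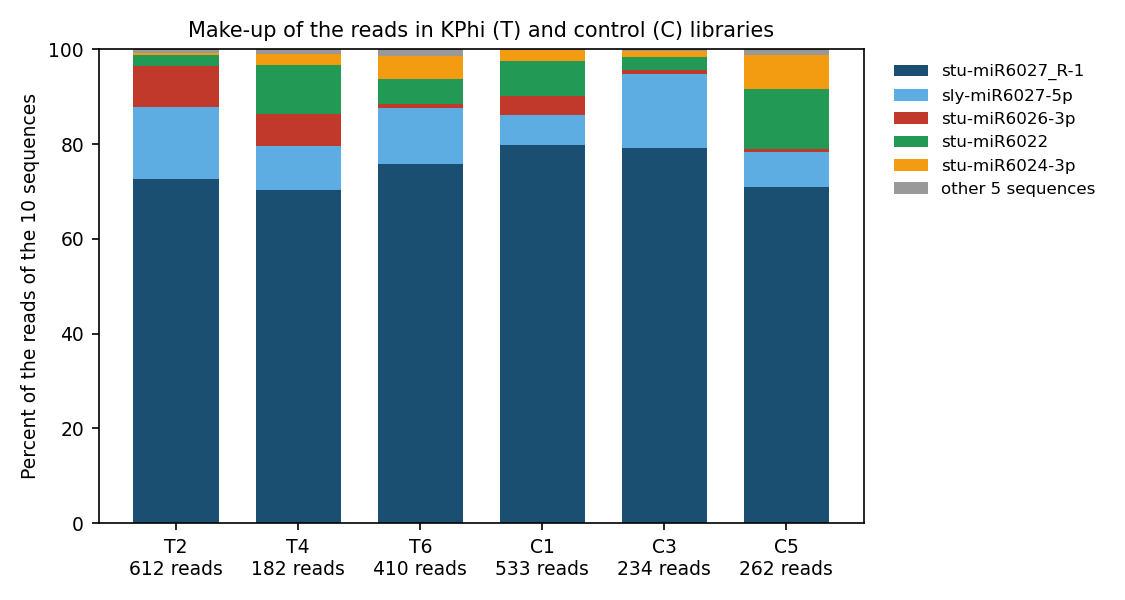
Percent of the reads of the 10 sequences (vertical axis, from 0) that each of the 5 abundant ones and the other 5 together took in each KPhi (T) and control (C) library, with the reads of the 10 under each bar. The arms of miR6027 make up 78.2% to 94.9% of every bar, and stu-miR6026-3p is widest in T2, T4 and C1.

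Levels of single sequences are given as CPM normalized by TMM, that is counts per 1e6 table reads after a factor per library computed from the sequences that vary least. At this depth 1 read was worth 1.73 to 3.36 CPM. stu-miR6027_R-1, the 3p arm, had 1327, 430.2 and 599 CPM in T2, T4 and T6, against 733, 530.2 and 550.2 CPM in C1, C3 and C5. T2 was the highest and T4 the lowest of the 6 libraries, so the control libraries lay inside the range of the KPhi libraries. KPhi libraries averaged 785 ± 477 CPM and control libraries 605 ± 112 CPM (SD, n = 3 each). The log2 fold change of KPhi over control was 0.38 (standard error 0.51, 95% interval -0.74 to 1.497, adjusted p = 0.752 by the edgeR quasi-likelihood fit). The log2 fold change was -0.23 without T2, -0.24 with mappable reads as library size and 0.70 when libraries were scaled by their size alone.
sly-miR6027-5p, the opposite arm, had 274, 57.1 and 92.4 CPM in T2, T4 and T6, against 58.7, 106.0 and 56.2 CPM in C1, C3 and C5. On the TMM scale only T2 lay above all control libraries, and T4 and T6 fell among them. Its log2 fold change was 0.94 (standard error 0.66, 95% interval -0.51 to 2.39, adjusted p = 0.590 from edgeR), with means of 141 ± 117 CPM in KPhi and 73.6 ± 28.1 CPM in control libraries (SD, n = 3 each). Without T2 it was 0.052, or 0.040 with the sequences that pass the condition in all 6 libraries.

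**Figure D2:**
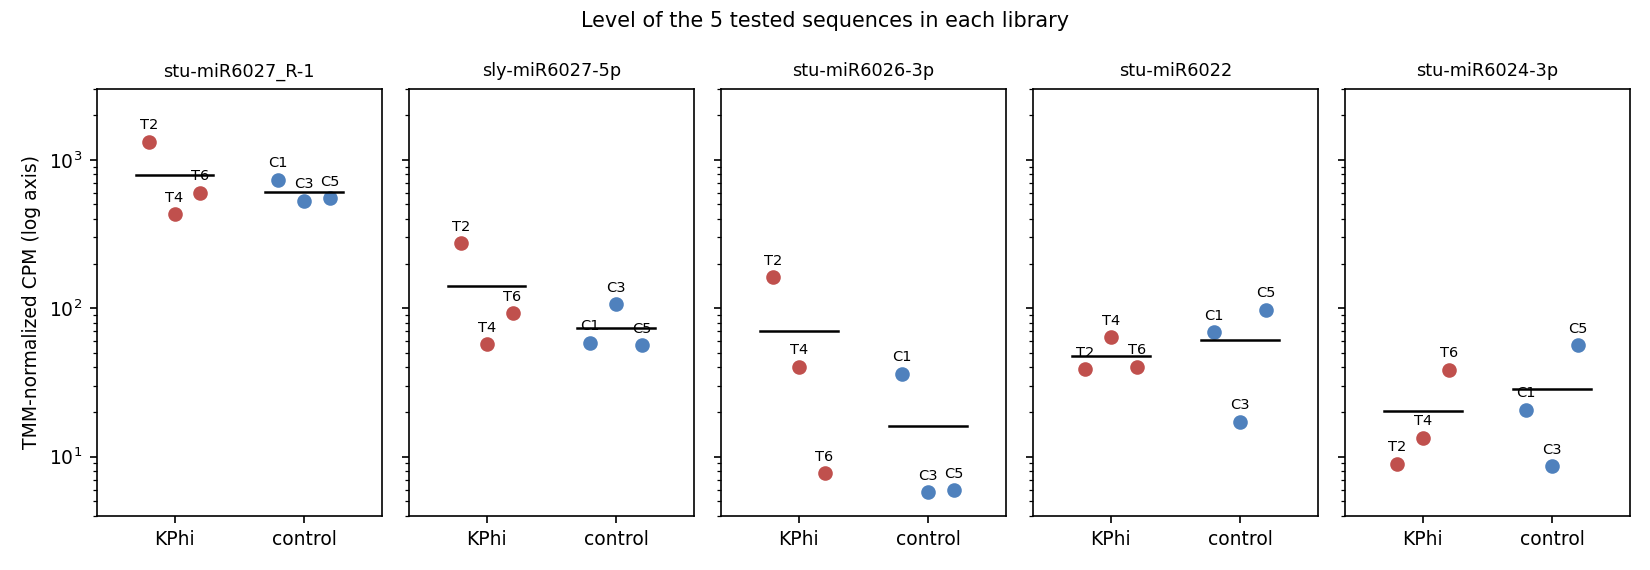
TMM-normalized CPM on a log axis of the 5 tested sequences in the KPhi libraries (red, left) and control libraries (blue, right), with 1 point per library and the group mean as a line. On this scale KPhi and control libraries overlap for all 5, and T2 is the highest point for both arms of miR6027 and for stu-miR6026-3p.

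The ratio of the arms of miR6027 is taken within a library and needs no scaling between libraries. That both come from 1 hairpin is assumed from the family name, since the 5p arm is named after tomato and the 3p arm after potato. The 5p arm made up 17.1% (95% Clopper-Pearson interval 14.0 to 20.6), 11.7% (6.98 to 18.1) and 13.4% (10.03 to 17.3) of the miR6027 reads in T2, T4 and T6. It made up 7.41% (5.18 to 10.2), 16.7% (12.01 to 22.2) and 9.27% (5.67 to 14.1) in C1, C3 and C5. C3 was thus close to T2, and the counting intervals of C1 and C3 did not overlap although both are control libraries. The means were 14.1% ± 2.77 in KPhi and 11.1% ± 4.90 in control libraries (SD, n = 3 each), a difference of 2.96 percentage points (exact two-sided permutation test, p = 0.4). With 3 libraries against 3 this test cannot give a p below 0.1. The 3p arm was the larger in every library, by 4.84 to 12.5 times, although the 5p sequence is of 22 nt and the recovered 3p sequence of 21 nt. The difference was 1.11 points without C1, 1.43 without T2 and 5.74 without C3.

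**Figure D3:**
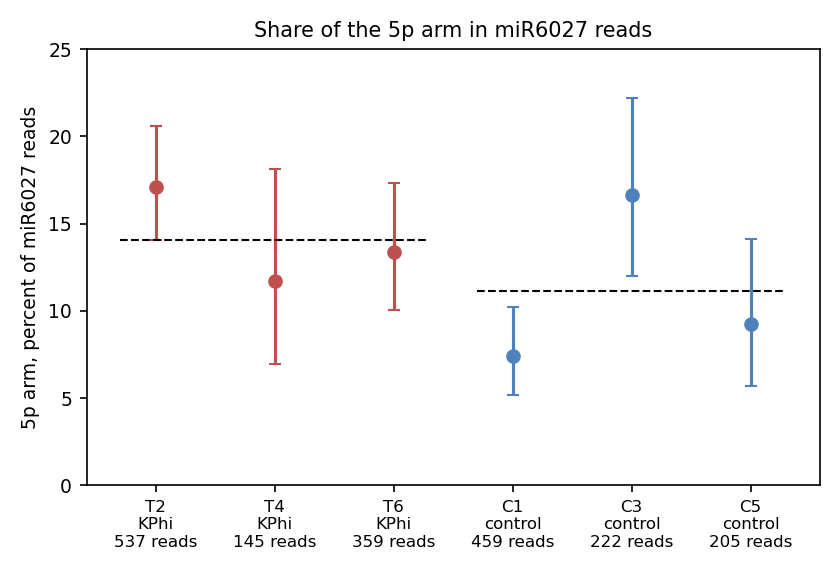
Share of sly-miR6027-5p in the reads of both miR6027 arms, in percent, for each library, with 95% Clopper-Pearson intervals as bars and group means as dashed lines. The KPhi libraries lie between 11.7% and 17.1% and the control libraries between 7.41% and 16.7%.

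stu-miR6026-3p, whose family targets Dicer-like 2 in tomato, differed the most between libraries of one treatment. It had 161, 40.3 and 7.70 CPM in T2, T4 and T6, from 54, 12 and 4 reads, against 36.2, 5.73 and 5.92 CPM in C1, C3 and C5, from 21, 2 and 2 reads. On the TMM scale T2 stood above all other libraries, T4 and C1 were close to each other, and T6 was close to C3 and C5. The highest library was 28.1 times the lowest. With means of 69.7 ± 80.8 CPM in KPhi and 16.0 ± 17.6 in control libraries (SD, n = 3 each), the log2 fold change was 1.97 (standard error 1.01, 95% interval -0.25 to 4.20, unadjusted p = 0.0747, adjusted p = 0.504 from edgeR). The SD of the KPhi libraries was larger than the difference of the means, and that of the control libraries was smaller. Without T2 the log2 fold change was 0.34, and without C1 it was 3.49, so that these 2 libraries set its size. Both fits use the sequences that pass the condition in all 6 libraries. Set against the other members in the same library, which again needs no scaling, stu-miR6026-3p took 8.82% (95% Clopper-Pearson interval 6.70 to 11.4), 6.59% (3.45 to 11.2) and 0.976% (0.266 to 2.48) of the group's reads in T2, T4 and T6. In C1, C3 and C5 it took 3.94% (2.46 to 5.96), 0.855% (0.104 to 3.05) and 0.763% (0.0926 to 2.73). The intervals of T2 and T6 do not overlap although both are KPhi libraries. Its other arm, stu-miR6026-5p_1ss12TA, had 3 reads in all, 2 in T4 and 1 in C5, against 95 of the 3p arm.

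stu-miR6022, of the family that targets receptor-like genes related to Cf-9 in tomato, had 38.8, 63.9 and 40.4 CPM in T2, T4 and T6, against 69.0, 17.2 and 97.6 CPM in C1, C3 and C5. On the TMM scale the 3 KPhi libraries lay between the lowest and the highest control library. The log2 fold change was -0.37 (standard error 0.64, 95% interval -1.77 to 1.03, adjusted p = 0.801 from edgeR), with means of 47.7 ± 14.0 in KPhi and 61.3 ± 40.8 in control libraries (SD, n = 3 each). It was 0.22 without C5, or 0.10 with the sequences that pass the condition in all 6 libraries, and 0.14 when libraries were scaled by their size alone.
stu-miR6024-3p, of the family that targets Tm-2 in tomato, was the scarcest member tested. It had 8.95, 13.4 and 38.5 CPM in T2, T4 and T6, from 3, 4 and 20 reads, against 20.7, 8.60 and 56.2 CPM in C1, C3 and C5, from 12, 3 and 19 reads. High and low libraries occurred in both treatments. The log2 fold change was -0.39 (standard error 0.73, 95% interval -2.01 to 1.23, adjusted p = 0.821 from edgeR), with means of 20.3 ± 15.9 CPM in KPhi and 28.5 ± 24.7 CPM in control libraries (SD, n = 3 each). It was -1.21 without T6, -0.043 without T2, -0.049 without T4 and 0.47 without C5, each with the sequences that pass the condition in all 6 libraries. Despite the run of 8 bases that they share, stu-miR6024-3p was lowest in T2 and C3 and stu-miR6026-3p was highest in T2.

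The 5 members that were not tested were at the limit of detection. stu-miR6025 had 4, 0 and 2 reads in T2, T4 and T6 and 0 in all control libraries. In a library with 0 reads a level of up to 3 reads is allowed, which is 0.552 to 0.726 per 1e6 mappable reads in the control libraries, so the difference was not detectable at this depth. stu-miR6024-5p_R-1 had 1 read, in T2, against 61 for its 3p arm. nta-miR6021_L-1R+1_1ss21AG had 6.5 reads, of which 3.5 in T6, 1 in C3 and 2 in C5, and nta-miR6021_1ss21AG had 1.5, of which 0.5 in T6 and 1 in C1. How fractions of a read were assigned is not given in the sources used here, and the near-identity of these 2 leaves their separate counts uncertain.
The table also holds 12 sequences of these families whose names are written MIR, with p5 or p3 for the arm. Their lengths ran from 15 nt (sly-MIR6027-p5_1ss3TA) to 32 nt (stu-MIR6023-p5), so not all have the length of a miRNA. Those described next are of 21 or 22 nt. stu-MIR6025-p3 had 54 reads against 6 for stu-miR6025, and sly-MIR6023-p3_1ss13GT had 97 reads although no mature miR6023 was in the table. stu-MIR6022-p5 had 55 reads against 132 for stu-miR6022. The log2 fold changes were -0.19 (standard error 0.52) for stu-MIR6025-p3 and -0.85 (standard error 0.70) for sly-MIR6023-p3_1ss13GT, with adjusted p-values of 0.833 and 0.610 from edgeR. miRNA genes for MIR6022 to MIR6027, 6 families, are listed in the RefSeq annotation of potato assembly SolTub_3.0.

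Of the 5 members tested, 0 passed an adjusted p of 0.05 by edgeR and 0 an unadjusted p of 0.05. The unadjusted p of stu-miR6026-3p was below 0.05 in 4 of 17 alternatives, at 0.0044 with no minimum of reads, 0.018 and 0.011 without T6 and 0.024 without C1, and that of sly-miR6027-5p in 2 of 21, at 0.046 and 0.042 without T4. The adjusted p of these 2 members was 0.196 or higher in every alternative run. Over all 165 sequences tested, 0 (0%) passed the adjusted and 16 (9.70%) the unadjusted threshold, of which 9 (5.45%) were higher and 7 (4.24%) lower in KPhi. DESeq2 called 0 at the adjusted and 27 at the unadjusted threshold, and limma-trend 0 and 9. In TMM-normalized CPM, KPhi and control libraries did not overlap for 0 of the 5 members, against 28 of 165 (17.0%). As a share of table reads without the TMM factors, those of sly-miR6027-5p did not overlap, and no count over all sequences was made on that scale. Above 0 were 3 members, both arms of miR6027 and stu-miR6026-3p, and below 0 were 2, against 72 of 165 (43.6%) above 0. The median log2 fold change of the members was 0.38 and that of all sequences tested was -0.13. The scaling moved the median of all sequences to 0.35 by library size alone and to -0.49 by mappable reads. Relative to that median, stu-miR6026-3p was at 2.10 by TMM, 1.93 by library size and 1.55 by mappable reads, and stu-miR6027_R-1 was at 0.51, 0.35 and 0.25. The 95% interval of the smallest of the standard errors, that of stu-miR6027_R-1, still holds a 2-fold difference in the upward direction, so an absence of change was not shown for any member.

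**Figure D4:**
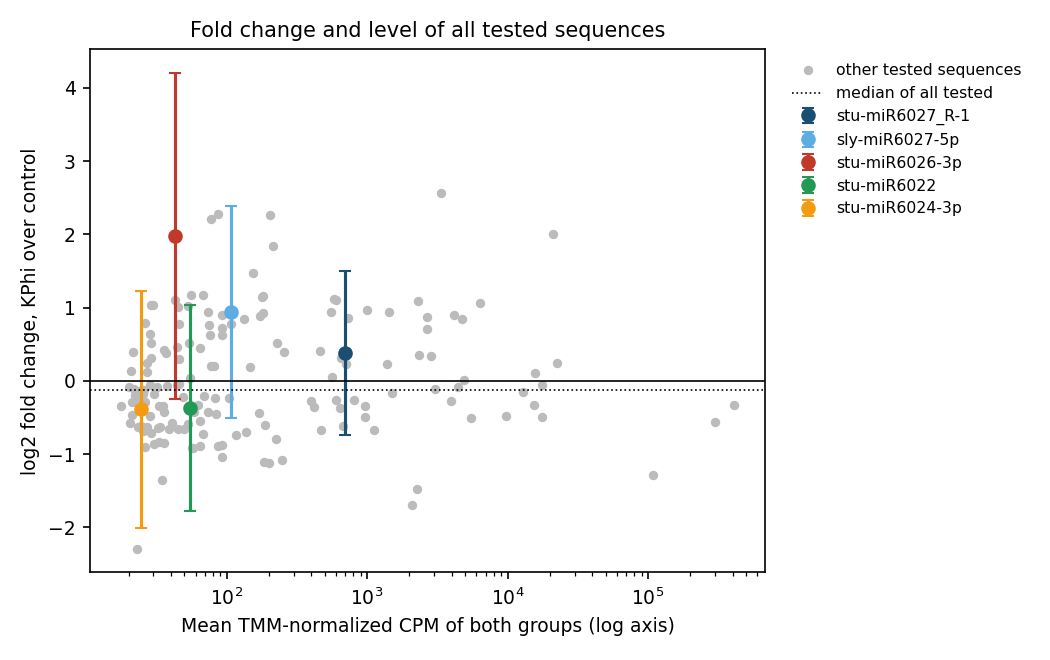
Log2 fold change of KPhi over control (vertical axis) against the mean TMM-normalized CPM of both groups (log axis) for all 165 sequences tested, with 95% intervals for the 5 members. All 5 intervals hold 0, and that of stu-miR6026-3p is the widest, from -0.25 to 4.20.

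**Figure D5:**
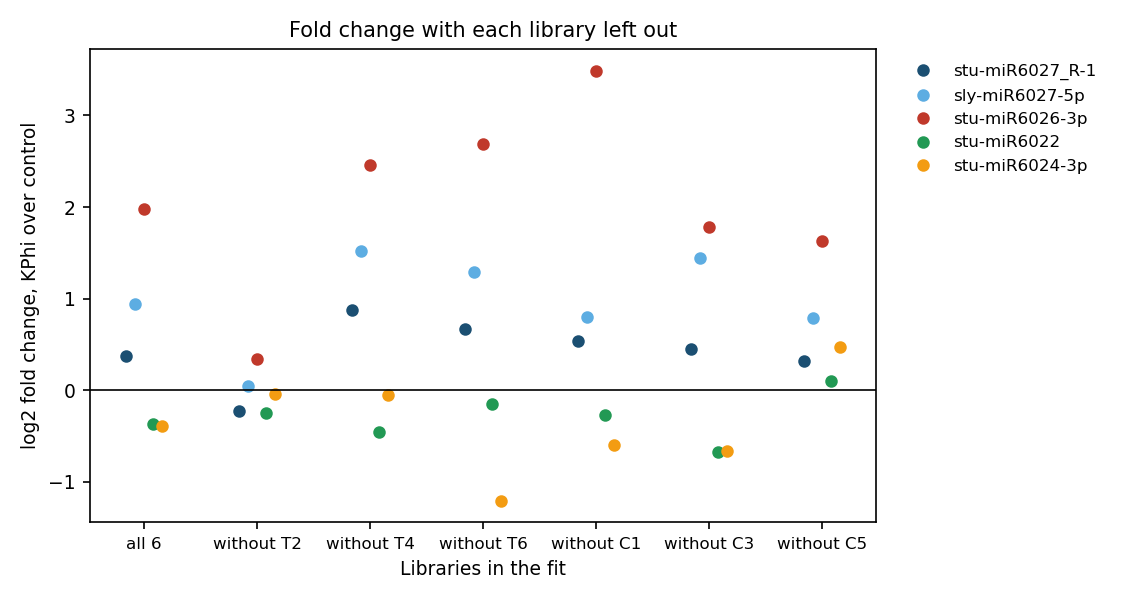
Log2 fold change of the 5 tested sequences (vertical axis) with all 6 libraries and with each library left out in turn, for the sequences that pass the condition in all 6 libraries. Without T2, stu-miR6027_R-1, sly-miR6027-5p and stu-miR6026-3p lie at -0.23, 0.040 and 0.34.

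The other large group of miRNAs directed at immune receptors, miR482 with miR2118 and miR5300, which targets mRNAs of NBS-LRR receptors, had 16 sequences in the table and 83.2 times the reads of the 10 members. Of its 9 tested sequences 1 was above 0 and 8 were below, with a median log2 fold change of -0.23 and 0 past the adjusted threshold. At an unadjusted p of 0.05, 1 was higher and 1 lower, against 5.45% higher and 4.24% lower of all 165. The lower was stu-miR482a-3p, at -1.48 (standard error 0.45, unadjusted p = 0.0072, adjusted p = 0.470 from edgeR). In TMM-normalized CPM its KPhi and control libraries did not overlap, the only such case in the list, against 17.0% of all 165. This list was also taken by name and pools both arms. The median is the value of sly-miR482d-5p_R-4, and sly-miR482e-5p was at -0.91. These 5p arms need not target the same mRNAs as the 3p arms. sly-miR5300 was the one above 0, at 2.00 (standard error 0.78), and stu-miR482e-3p and stu-miR482d-3p were at -0.061 (standard error 0.45) and -0.34 (standard error 0.42), with adjusted p-values of 0.470, 0.927 and 0.743 from edgeR.
miRNA families directed at the small RNA machinery, which miR6026 joins in tomato, were miR162 (Dicer-like 1), miR168 (Argonaute 1) and miR403 (Argonaute 2). The list was taken by family name and pools both arms, such as stu-miR162a-5p with stu-miR162a-3p. An opposite arm has another sequence and need not target these mRNAs. Of their 12 sequences 8 were tested, with 5 above and 3 below 0, a median of 0.33 and 0 past either threshold. sly-miR168a-5p_R+1, stu-miR162a-3p and sly-miR168b-3p_L+1, the most abundant, were at -0.11 (standard error 0.40), 0.87 (standard error 0.73) and 0.86 (standard error 0.71). T2 held 781.5 of 7379.5, 2550 of 6340.5 and 664.5 of 1728.5 of their reads. In KPhi libraries stu-miR162a-3p averaged 3431 ± 3664 CPM and sly-miR168b-3p_L+1 939 ± 935 CPM (SD, n = 3).

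The pattern of each member over the 6 libraries was compared with that of the other tested sequences by the root mean square difference of mean-centred log2 CPM, where 0 means the same pattern. This is a description of 6 libraries that share their depth and scaling. The sequences nearest to stu-miR6027_R-1 were PC-3p-66564_24 (0.204), sly-miR168a-3p (0.316) and PC-5p-51551_34 (0.327), against a median of 0.821 over all. In TMM-normalized CPM each was likewise highest in T2 and lowest in T4, which the choice by nearness favours. PC-3p-66564_24 had only 51 reads in all. sly-miR6027-5p, its opposite arm, lay at 0.488 from it. Nearest to stu-miR6026-3p were sly-miR396a-5p (0.972), PC-3p-16718_128 (1.05) and sly-miR5300 (1.06), against a median of 1.88. All 3 were highest in T2, which the choice by nearness again favours. sly-miR396a-5p, of a family that targets growth-regulating factors, had 15015 CPM in T2 and 559 to 1472 CPM in the other libraries, and sly-miR5300 had 81138 CPM in T2 and 7594 to 11090 CPM in the others. Within the group, stu-miR6026-3p and stu-miR6024-3p were the farthest apart, at 2.36.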

How the data were processed

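Small RNA of potato leaves was sequenced from 3 KPhi and 3 control libraries. Libraries were made by the authors with a TruSeq small RNA kit and read over 50 bp from one end. Reads of 15 to 32 nt were kept by ACGT101-miR (version not given in the sources used here) and matched to known precursors (miRBase 21.0) and the genome. The deposited count of raw and mappable reads is a whole number per library. The deposited expected counts per sequence are reads before normalization, of which 306 sequences hold fractions by a rule not given. Normalized values (signal), as deposited, equal these reads over 1 size parameter for each library. A table of the authors' own comparison (p-values, means and SDs) was not used.
Reads were rounded to whole numbers, and a sequence entered the test if it reached 10 reads in 3 or more libraries, which left 165 for edgeR 4.0.16 (TMM, quasi-likelihood test, Benjamini-Hochberg adjustment over all 165, threshold 0.05, 95% intervals from the same model). The biological coefficient of variation was 49.8%. The arm share was compared by an exact permutation test. Libraries are biological replicates by the study's statement, with the plants behind each not given, and p-values measure the spread between these libraries. Alternatives were RLE factors, library size, mappable reads, the authors' parameters, other filters, robust dispersion, DESeq2 1.42.0, limma 3.58.1 on log2 of the normalized value plus 1, and each library left out.
The text names all members, the 3 sequences nearest in pattern to stu-miR6027_R-1 and to stu-miR6026-3p, the MIR sequences of these hairpins, and the 3 most abundant of each list. PC-5p-42181_44 was named after its sequence was seen, and stu-miR482a-3p after its result was seen. Members and lists were chosen with earlier results of these data known. Other software was scipy 1.17.1, numpy 2.4.6, pandas 2.3.3 and matplotlib 3.10.9 under Python 3.11.15, and R 4.3.3. Genome positions are not given, because no genome was used here.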

Additional observations from a re-analysis of the deposited data

How the results depend on the processing

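None of the 5 tested members passed an adjusted p of 0.05 under any of the alternatives run, with adjusted p-values of 0.196 to 0.987. Over all sequences the number called was 0 under every alternative except without the filter on low reads, where 4 of 841 were called. stu-miR6026-3p kept its direction in 17 of 17 alternatives (0.34 to 3.49) and sly-miR6027-5p in 21 of 21 (0.040 to 1.52). stu-miR6027_R-1 changed sign in 3 of 21, at -0.24 with mappable reads as library size and -0.23 without T2, and ranged from -0.23 to 0.86 with 1 library left out (to 0.87 with all 165 sequences kept). stu-miR6022 changed sign in 3 of 20, at 0.14 by library size alone and at 0.22 and 0.10 without C5 (filter on 5 and on 6 libraries), and ranged from -0.64 to 0.22 with 1 library left out (-0.68 to 0.10 with all 165 kept). stu-miR6024-3p changed sign in 1 of 17, at 0.47 without C5, and ranged from -1.21 to 0.47. The causes were not tested. With the filter applied to 5 libraries, stu-miR6026-3p was not tested without T2, T4 or C1, nor stu-miR6024-3p without T6, C1 or C5. The fits that keep all 165 sequences were added after seeing the data. The 5p share of miR6027 differed by 1.11 to 5.74 percentage points with 1 library left out, and by 0.45 as a log2 ratio (exact two-sided permutation test, p = 0.3). At 61 to 132 reads over 6 libraries, the depth limits what can be said of the 3 scarcer tested members. No paired analysis was run, because the KPhi and control libraries share no replicate number and the sources used here do not say whether they were paired.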
